A study of Homo sapiens with 6 samples.

Results

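The genes described here build, switch on and move the machinery that copies DNA. They are 58 genes of origin licensing, origin firing and the replication fork, chosen by symbol from the 63152 genes counted, with no measured value in the rule. They fall into 13 groups by role, from the origin recognition complex to the proteins that protect forks. All 58 had enough counts to be tested.

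RNA came from A549 cells, an established line from a human lung adenocarcinoma. The siRPS19 group, with 3 libraries from biological replicates, received a SMARTpool of siGENOME siRNAs against RPS19, a protein of the small ribosomal subunit. The siOTP group, also with 3 libraries, received the non-targeting ONTARGETplus control siRNA. Both were reverse transfected at 10 nM with DharmaFECT1 and harvested at 72 hours, and no gene other than RPS19 is stated to differ. Because the siRNAs are of different product lines, reagent and target cannot be told apart, and 1 pool in 1 cell line limits the group as a model of RPS19 loss.

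Replication starts at sites bound by the origin recognition complex. CDC6 and CDT1 help it load the MCM2-7 helicase as an inactive double ring, a step called licensing, which geminin and the destruction of CDT1 restrict to the time before S phase. Kinases then recruit CDC45 and the GINS complex to turn the ring into the moving helicase, polymerases alpha, epsilon and delta make the strands, and PCNA, loaded by RFC clamp loaders, holds polymerase delta on DNA. Many of these genes are known to be transcribed under E2F factors as cycling cells approach S phase.

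Total counts on genes were 20814110 to 23889372 per library. RPS19 itself (ENSG00000105372, chromosome 19, 42363988 to 42376994 in hg19) had 44.6, 36.0 and 44.4 CPM in the siRPS19 libraries, against 1474, 1374 and 1567 CPM in the siOTP libraries, which is 35.3-fold lower (adjusted p = 4.98e-12, edgeR's quasi-likelihood test, adjusted by Benjamini-Hochberg over the 17171 genes tested, as for every gene here). CPM here is the count scaled to TMM-normalised library size, which takes the bulk of the genes as the common level. As annotated, 34 of the 58 genes overlap another gene. Scaling to library totals instead moved all log2 fold changes up by 0.29. Of the epithelial genes, KRT8, KRT18 and CDH1 were at 29.4 CPM or more in every library, as KRT19 was at 32.0 or more, and EPCAM was lower at 3.10 to 5.32 CPM. These did not move together: KRT19 was 6.86-fold and CDH1 1.63-fold higher, KRT8 1.94-fold, KRT18 2.63-fold and EPCAM 1.48-fold lower. Of the genes typical of A549, AKR1B10 was 5.17-fold, AKR1C1 1.70-fold and ALDH1A1 1.32-fold lower, all by the same test. Genes typical of blood, endothelium and liver (PTPRC, CD3E, LYZ, VWF and ALB) were at or below 0.260 CPM. Of the fibroblast genes, DCN was at or below 0.154 CPM and PDGFRB at or below 0.824 CPM, but COL1A1 had 19.5, 14.6 and 13.9 CPM after siRPS19, against 39.6, 35.5 and 32.0 CPM after siOTP, and its part in the results was not tested. In bulk RNA, fewer cells carrying a transcript and less of it per cell cannot be told apart in any value below.

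Of the 58 genes, 56 were lower after siRPS19 and 2 were higher, by edgeR's quasi-likelihood test at an adjusted p under 0.05. The background is wide: of the 17171 genes tested, 38.9% were called lower and 39.5% higher. That balance holds on the TMM scale: library totals gave 9114 genes higher and 4734 lower, and upper-quartile factors 8187 higher and 5505 lower, against 6778 and 6673 with TMM. Falls of at least 4-fold were seen in 39 of the 58 genes, against 3.20% of all genes tested. The median log2 fold change of the 58 was -2.45, against 0.02 over all genes tested. In 56 of the 58 every siRPS19 library lay below every siOTP library, against 39.6% of all genes tested. In the other 2 every siRPS19 library lay above, and the share of all genes that did so is not given here. Adjusted p over the 58 genes ran from 1.49e-23 to 0.0182. The members were proposed with results of these libraries known, so these counts describe the list and are no independent evidence of its direction.

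The upstream sequences below show the E2F-type letters found near the start of many of these genes. They are 60-base windows upstream of the annotated start, from the RefSeq promoter table on GRCh38.p14, written 5′ to 3′ on the gene's own strand. The first 8 are genes that fell by more than 4-fold, from several roles, and the last 2 are PCNA and LIG1, which moved least. Capitals mark the E2F-type letters searched for: TTTCCCGC, TTTCGCGC, TTTGCCGC and TTTGGCGC, on either strand.
DTL (chr1:212035688-212035747, plus strand): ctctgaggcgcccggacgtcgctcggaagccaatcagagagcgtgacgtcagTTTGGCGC
CDT1 (chr16:88803728-88803787, plus strand): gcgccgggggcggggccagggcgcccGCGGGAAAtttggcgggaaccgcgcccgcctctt
MCM3 (chr6:52284883-52284942, minus strand): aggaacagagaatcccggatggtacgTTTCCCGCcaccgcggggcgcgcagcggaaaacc
MCM6 (chr2:135876562-135876621, minus strand): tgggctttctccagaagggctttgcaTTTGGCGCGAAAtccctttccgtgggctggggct
MCM7 (chr7:100101551-100101610, minus strand): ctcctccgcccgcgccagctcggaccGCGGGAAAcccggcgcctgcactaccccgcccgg
GINS2 (chr16:85688955-85689014, minus strand): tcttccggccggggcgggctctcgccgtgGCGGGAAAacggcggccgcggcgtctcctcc
POLA2 (chr11:65261883-65261942, plus strand): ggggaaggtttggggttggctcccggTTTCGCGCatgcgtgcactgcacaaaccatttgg
RFC3 (chr13:33818068-33818127, plus strand): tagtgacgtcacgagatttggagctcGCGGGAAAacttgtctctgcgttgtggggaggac
PCNA (chr20:5126648-5126707, minus strand): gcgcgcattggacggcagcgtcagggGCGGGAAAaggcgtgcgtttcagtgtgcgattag
LIG1 (chr19:48170425-48170484, minus strand): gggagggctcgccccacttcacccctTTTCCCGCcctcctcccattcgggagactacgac

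In the bases printed, MCM6 carries the letters on both strands in a single overlapping run, and its 250 upstream bases hold 4 matches in all, while MCM3 and LIG1 hold the same 8 letters. The DTL match ends at the base before the annotated start. POLD4, the gene that rose most, had none of the letters in its windows, and the 250 upstream bases of 1 of them are shown for contrast.
POLD4 (chr11:67353597-67353846, minus strand): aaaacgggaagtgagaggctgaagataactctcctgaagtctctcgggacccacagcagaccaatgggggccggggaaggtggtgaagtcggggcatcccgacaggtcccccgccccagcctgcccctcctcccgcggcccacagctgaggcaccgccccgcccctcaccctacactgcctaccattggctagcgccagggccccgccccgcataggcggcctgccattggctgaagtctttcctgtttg

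Of the 58 genes, 49 had a window in the table, which spans 250 bases before to 50 bases after the start. DNA2, DSCC1, GINS4, MCM4, MCM5, POLD3, RECQL4, RPA2 and RPA3 were not searched. One of the E2F-type strings was present for 25 of the 49 genes, or 51.0%, against 3.99% of the 27305 genes in the table and 6.36% of the 10516 tested genes with a window. Not all of these matches are upstream. CDC6, CLSPN, GINS1, GINS3, MCM2, MCM8, POLE2 and TOPBP1 had a match, but none wholly within the 250 bases before the start. The CCAAT letters, also searched on both strands, were present for 30 of the 49, or 61.2%, against 42.7% of tested genes with a window. On either strand TTTGAA or TTCGAA, the letters of the CHR element of late cell-cycle genes, were present for 3 of the 49, or 6.12%, against 15.6%. These are counts of letters in a window, with several windows for some genes, and a match is neither a binding site nor a cause.

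The 25 genes with a match had a median log2 fold change of -2.49, and the 24 without had -2.37. Among the 33 genes with a window that fell at least 4-fold, 17 had a match, or 51.5%, and among the other 16 genes 8 had one, or 50%. ORC1, CDC45 and MCM10 had no match in their windows and were each lower by more than 45-fold. Over all tested genes with a window the medians were -0.27 for 669 with a match and -0.01 for 9847 without.

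**Figure D1:**
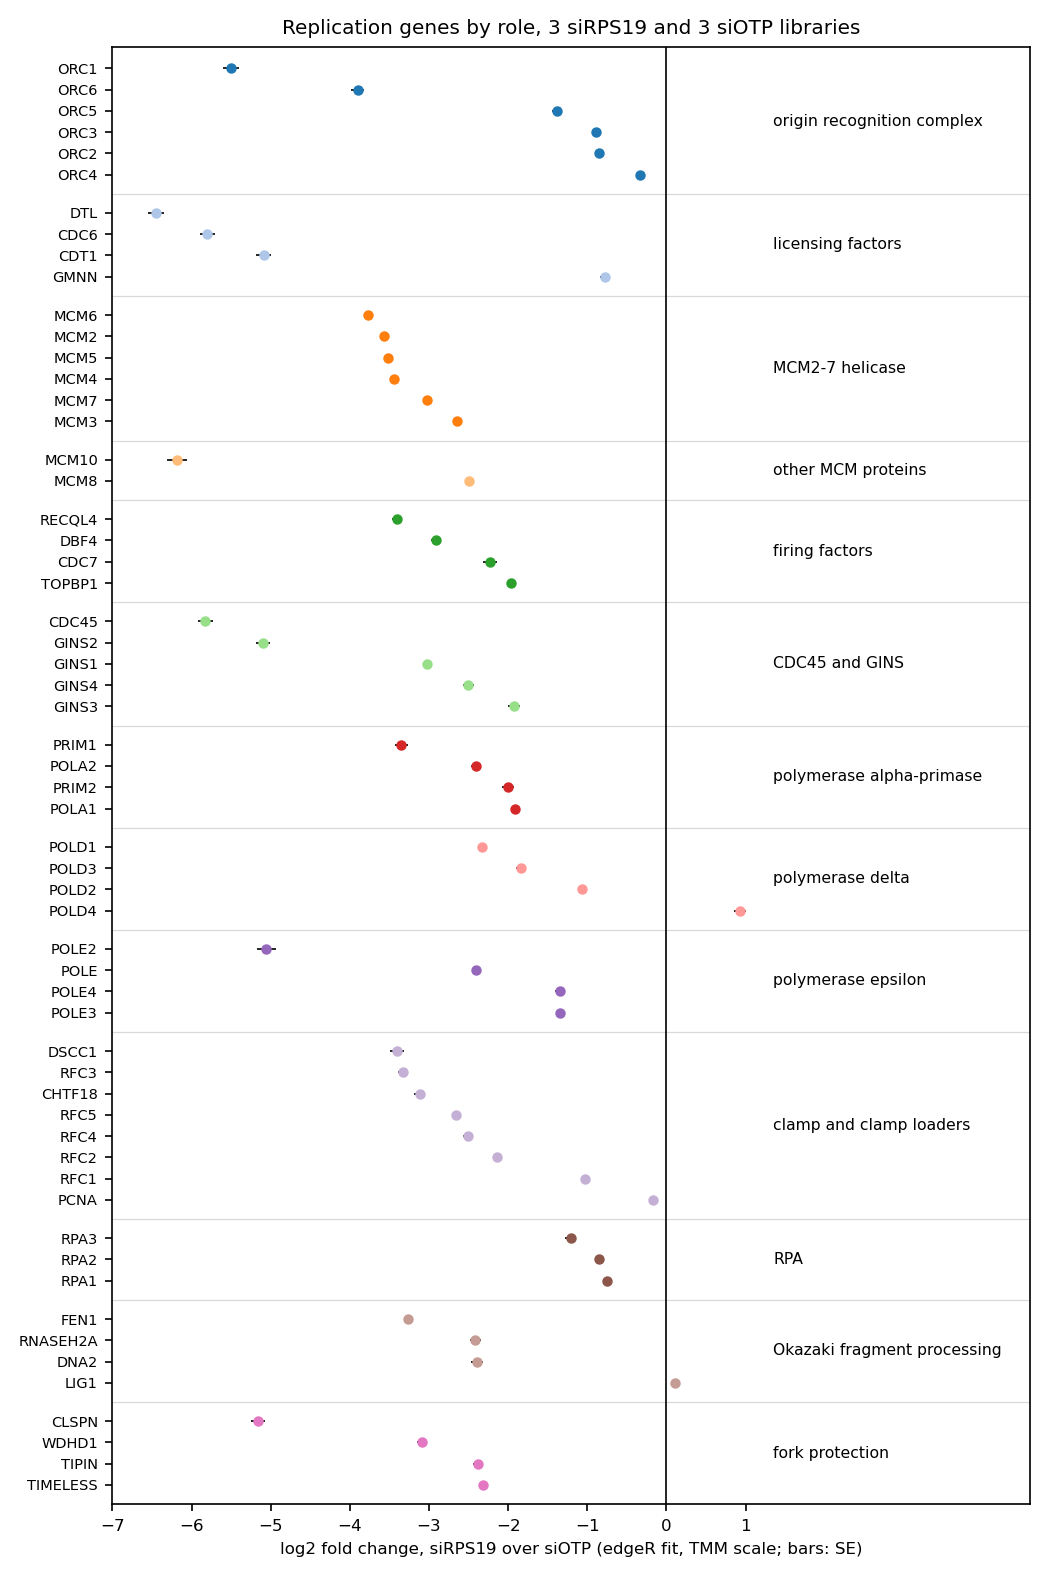
Log2 fold change, siRPS19 over siOTP, of the 58 genes by role, with bars for the standard error and groups run down the page. Licensing factors reach -6.45 at DTL, RPA subunits stay between -1.21 and -0.76, and only POLD4 and LIG1 lie above 0.

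The origin recognition complex split into 2 subunits that fell by more than 10-fold and 4 that fell by 2.61-fold or less. ORC1, the largest subunit, whose level is known to vary over the cell cycle, had 0.885, 1.30 and 1.16 CPM in the siRPS19 libraries, against 48.9, 49.7 and 52.8 CPM in the siOTP libraries. The counts behind these values were 23, 30 and 28 counts after siRPS19, against 1019, 981 and 1024 after siOTP, so the siRPS19 libraries held little of the transcript. Its log2 fold change was -5.50 ± 0.10 (SE), a 45.4-fold fall (adjusted p = 9.49e-21, edgeR's quasi-likelihood test).

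ORC6, the smallest subunit, which takes part in helicase loading, was 14.9-fold lower. It had 3.77, 3.43 and 4.01 CPM after siRPS19, against 52.8, 59.9 and 55.0 CPM after siOTP. ORC2, ORC3 and ORC5, of the complex core, were lower by 1.80-fold, 1.85-fold and 2.61-fold. ORC4, an AAA+ subunit of the same core, had 34.5, 36.6 and 35.2 CPM after siRPS19, against 41.6, 45.5 and 46.7 CPM after siOTP. Its groups did not overlap, but the gap was narrow, at -0.33 ± 0.06 (SE) on the log2 scale (adjusted p = 1.82e-05, edgeR's quasi-likelihood test). Scaled to library totals, ORC4 was -0.05 and no longer passed (adjusted p = 0.475).

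Within single libraries, where scaling cancels, the ratio of ORC1 to ORC2 per kilobase showed the same gap. The log2 ratio was -4.05 ± 0.33 after siRPS19, against 0.60 ± 0.07 after siOTP (SD, n = 3 each), a difference of -4.64. For ORC6 over ORC2 it was -2.75 ± 0.11 after siRPS19, against 0.30 ± 0.14 after siOTP, a difference of -3.05. Of the 21 ratios computed, 19 had groups that did not overlap, 16 lower and 3 higher after siRPS19, these 2 among the lower ones (exact two-sided permutation p = 0.10, the smallest that 3 libraries against 3 allow, and 0.111 after Benjamini-Hochberg adjustment over the 21 ratios). The share of such ratios among other gene pairs was not computed. With 38.9% of all genes tested called lower and 39.5% higher, the count of 19 cannot be read as particular to these pairs.

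The licensing factors held the largest fall of all 58 genes. DTL, the substrate receptor of the ubiquitin ligase that destroys CDT1 on chromatin, had 1.15, 0.781 and 1.28 CPM in the siRPS19 libraries, against 88.5, 99.2 and 97.4 CPM in the siOTP libraries. All 3 siRPS19 libraries were near 1 CPM, far below the siOTP libraries. The log2 fold change was -6.45 ± 0.10 (SE), 87.6-fold lower (adjusted p = 4.61e-22, edgeR's quasi-likelihood test).

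CDC6, the ATPase that joins the recognition complex to load MCM2-7, was lower by 55.8-fold. CDT1, which brings the MCM2-7 ring to the origin, was lower by 34.1-fold. GMNN, encoding geminin, the inhibitor of CDT1, moved least in the group, with 28.7, 29.8 and 30.3 CPM after siRPS19, against 47.0, 52.4 and 52.7 CPM after siOTP. The groups did not overlap, and the fall was 1.71-fold (log2 fold change -0.78 ± 0.06 (SE), adjusted p = 8.31e-11, edgeR's quasi-likelihood test).

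The loader fell far more than its inhibitor. The log2 ratio of CDT1 to GMNN per kilobase was -4.74 ± 0.04 after siRPS19, against -0.44 ± 0.15 after siOTP (SD, n = 3 each), a difference of -4.30, and the libraries of the groups did not overlap (exact permutation p = 0.10, adjusted 0.111). CDC6 over CDT1 was 0.85 ± 0.39 after siRPS19, against 1.61 ± 0.09 after siOTP, a difference of -0.77, also without overlap.

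The 6 subunits of the MCM2-7 helicase fell together, within a range of 1.12 on the log2 scale. MCM2 had 15.3, 16.4 and 16.7 CPM after siRPS19, against 193, 189 and 194 CPM after siOTP. MCM3 had 43.0, 39.7 and 42.2 CPM after siRPS19, against 264, 268 and 252 CPM after siOTP. MCM4 had 39.8, 38.4 and 40.9 CPM after siRPS19, against 438, 424 and 436 CPM after siOTP. Each of these subunits of the ring was lower in every siRPS19 library than in any siOTP library, by 11.9-fold, 6.27-fold and 10.9-fold.

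MCM5 had 17.0, 16.9 and 17.7 CPM after siRPS19, against 197, 191 and 205 CPM after siOTP. MCM6 had 17.9, 18.2 and 17.3 CPM after siRPS19, against 241, 246 and 243 CPM after siOTP. MCM7 had 70.0, 63.7 and 74.0 CPM after siRPS19, against 559, 557 and 577 CPM after siOTP. Again the groups were far apart, with falls of 11.5-fold, 13.7-fold and 8.15-fold. MCM6 had the largest fall of the ring, a log2 fold change of -3.77 ± 0.04 (SE) (adjusted p = 1.49e-23, edgeR's quasi-likelihood test), and MCM3 the smallest, -2.65 ± 0.04 (adjusted p = 1.89e-21, same test).

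Although the ring holds its subunits in equal number, their transcripts were not at equal level per kilobase of the deposited length in either group. Per kilobase, MCM7 was highest, with 15.8 ± 1.18 RPKM after siRPS19, against 129 ± 2.50 after siOTP (SD, n = 3), and MCM5 lowest, with 2.53 ± 0.0643 RPKM after siRPS19, against 29.1 ± 1.07 after siOTP. RPKM here is TMM-normalised CPM per kilobase of the transcript length in the authors' deposited table. The order of the subunits depends on that length, and its match to the transcripts in these cells was not tested. In CPM alone MCM2 was lowest, with means of 16.1 after siRPS19 and 192 after siOTP, against 17.2 and 198 for MCM5. The highest subunit over the lowest was 6.24 ± 0.34 after siRPS19 and 4.43 ± 0.09 after siOTP (SD, n = 3 each). The log2 ratio of MCM4 to MCM7 differed by -0.42 (exact permutation p = 0.10, adjusted 0.111). The summed CPM of the 6 subunits was 203, 193 and 209 CPM in the siRPS19 libraries, against 1893, 1875 and 1908 CPM in the siOTP libraries.

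Outside the ring, MCM10, a fork protein needed to activate the helicase, had 1.19, 0.911 and 2.19 CPM in the siRPS19 libraries, against 109, 101 and 104 CPM in the siOTP libraries. The fall was 72.6-fold (log2 fold change -6.18 ± 0.13 (SE), adjusted p = 2.98e-13, edgeR's quasi-likelihood test), and siRPS19 replicate 3 lay highest of the 3 low libraries. MCM8, which works with MCM9 in homologous recombination, had 18.9, 17.4 and 20.4 CPM after siRPS19, against 107, 108 and 102 CPM after siOTP, 5.62-fold lower and without overlap (log2 fold change -2.49 ± 0.06, adjusted p = 2.19e-19, same test). MCM8 over MCM2 was higher, 0.55 ± 0.13 after siRPS19, against -0.53 ± 0.06 after siOTP on the log2 scale per kilobase (exact permutation p = 0.10, adjusted 0.111).

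**Figure D2:**
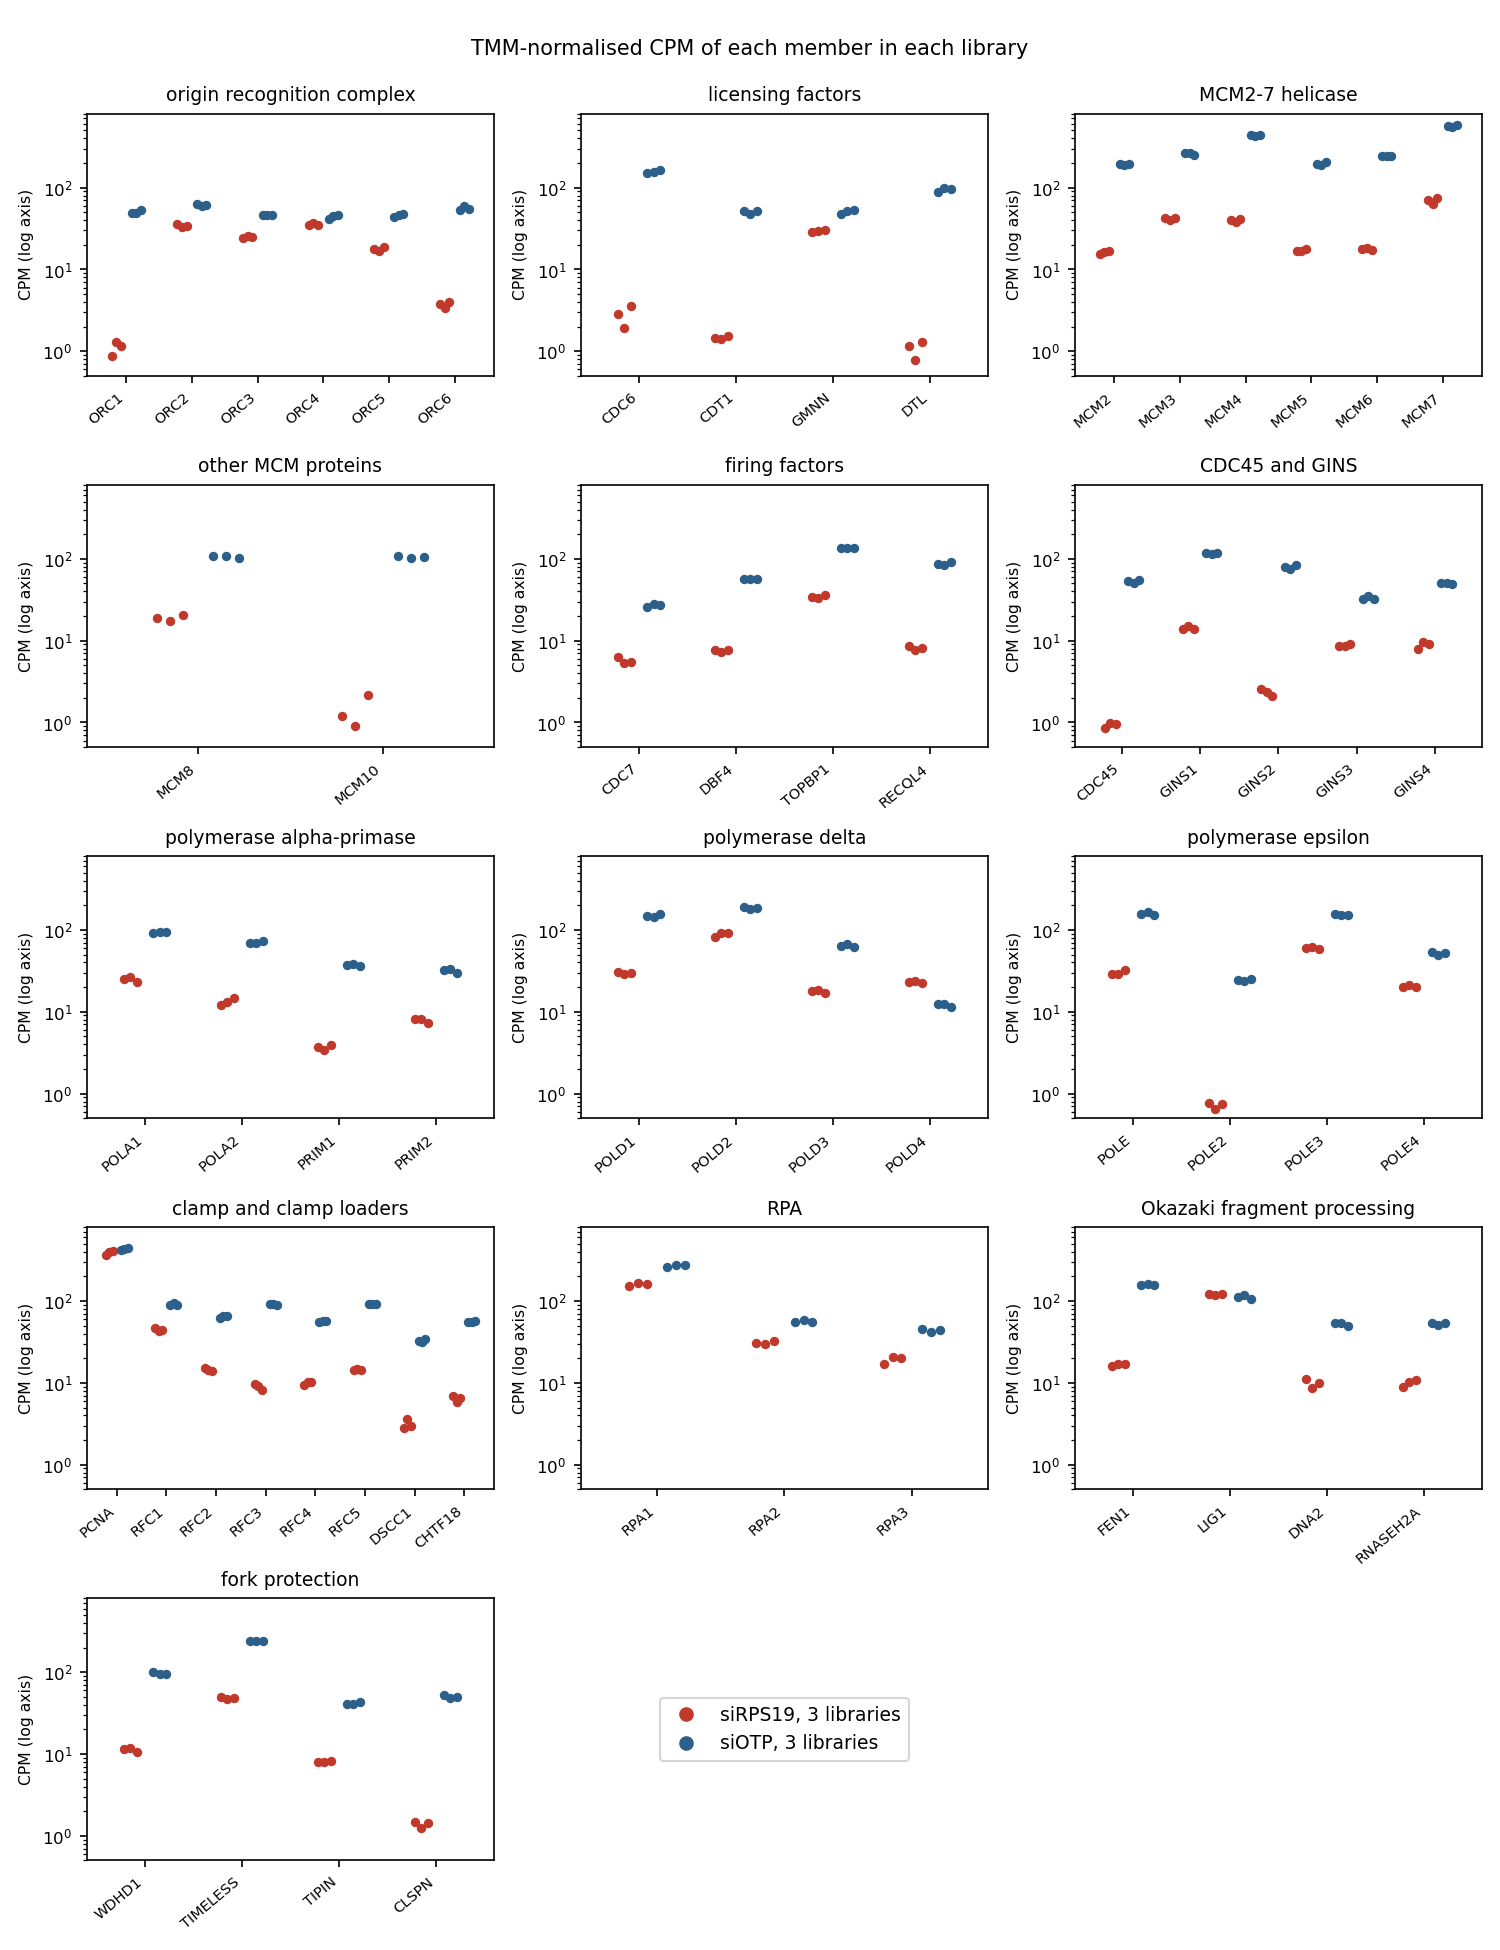
CPM per library on a log axis for the 58 genes, 1 panel per role, siRPS19 left of siOTP, 3 points per group. CDC45 lies at 0.846 to 0.998 CPM after siRPS19 and at 51.2 to 54.8 CPM after siOTP, while PCNA and LIG1 differ little.

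All 4 firing factors fell. RECQL4, a helicase-like protein needed for helicase activation, had 8.69, 7.72 and 8.23 CPM after siRPS19, against 86.2, 83.8 and 91.0 CPM after siOTP, 10.6-fold lower (log2 fold change -3.40 ± 0.06 (SE), adjusted p = 8.18e-21, edgeR's quasi-likelihood test). TOPBP1, the scaffold that links CDC45 loading to the kinases, had 34.4, 33.4 and 35.9 CPM after siRPS19, against 137, 134 and 134 CPM after siOTP, 3.91-fold lower (log2 fold change -1.97 ± 0.04, adjusted p = 2.7e-19, same test). Neither gene's groups overlapped.

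CDC7, the kinase that phosphorylates the MCM ring, was lower by 4.69-fold, and DBF4, its activating subunit, by 7.55-fold. DBF4 over CDC7 differed by -0.68 on the log2 scale (exact permutation p = 0.10, adjusted 0.111). The pseudogene DBF4P1 held 23 counts in all siRPS19 libraries and 114 in all siOTP libraries, against 552 and 3415 on DBF4, and reads of the 2 copies may not be told apart.

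CDC45, which joins MCM2-7 and GINS in the active helicase, was below 1 CPM in every siRPS19 library. It had 0.846, 0.998 and 0.952 CPM in the siRPS19 libraries, against 53.2, 51.2 and 54.8 CPM in the siOTP libraries, a log2 fold change of -5.83 ± 0.10 (SE), 56.8-fold lower (adjusted p = 1.83e-21, edgeR's quasi-likelihood test). The 4 GINS subunits, which form 1 complex in equal number, fell by unequal amounts. GINS3 had 8.54, 8.50 and 9.02 CPM after siRPS19, against 32.4, 34.8 and 31.9 CPM after siOTP, the smallest fall at 3.80-fold (log2 fold change -1.93 ± 0.07, adjusted p = 1.19e-15, same test).

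GINS2 fell most of the complex, by 34.2-fold, and GINS1 and GINS4 by 8.13-fold and 5.68-fold. The log2 ratio of GINS2 to GINS3 per kilobase was -1.25 ± 0.18 after siRPS19, against 1.92 ± 0.16 after siOTP (SD, n = 3 each), a difference of -3.17 with no overlap (exact permutation p = 0.10, adjusted 0.111). GINS2 lay below GINS3 after siRPS19 and above it after siOTP.

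Polymerase alpha-primase starts each strand with a short RNA and DNA primer. PRIM1, its catalytic primase subunit, had 3.73, 3.38 and 3.89 CPM after siRPS19, against 37.5, 38.2 and 36.7 CPM after siOTP, 10.2-fold lower (log2 fold change -3.35 ± 0.08 (SE), adjusted p = 8.89e-19, edgeR's quasi-likelihood test). POLA1, the catalytic polymerase subunit, had 25.3, 26.3 and 23.1 CPM after siRPS19, against 91.5, 93.5 and 95.5 CPM after siOTP, 3.75-fold lower (log2 fold change -1.91 ± 0.05, adjusted p = 5.79e-18, same test). Both were low in all siRPS19 libraries, with no overlap.

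POLA2, the accessory subunit of the polymerase, fell 5.31-fold, and PRIM2, the large primase subunit, 4.02-fold. PRIM1 over PRIM2 differed by -1.34 and POLA2 over POLA1 by -0.50 on the log2 scale, both without overlap (exact permutation p = 0.10, adjusted 0.111).

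In polymerase delta, which copies the lagging strand, 3 subunits fell and 1 rose. POLD4, the smallest accessory subunit, had 22.9, 23.8 and 22.3 CPM in the siRPS19 libraries, against 12.4, 12.4 and 11.4 CPM in the siOTP libraries. Each siRPS19 library was above each siOTP library, and the log2 fold change was 0.93 ± 0.07 (SE), 1.90-fold higher (adjusted p = 2.82e-10, edgeR's quasi-likelihood test). A gene named AP003419.11 overlaps 5401 bases of the POLD4 span on the same strand and held 0 counts in these libraries, so reads that fall in both may have been left uncounted.

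POLD1, the catalytic subunit, fell most, with 30.9, 28.6 and 29.6 CPM after siRPS19, against 149, 144 and 155 CPM after siOTP, 5.03-fold lower (log2 fold change -2.33 ± 0.05 (SE), adjusted p = 4.98e-20, edgeR's quasi-likelihood test). POLD2, which holds the catalytic and accessory subunits together, fell 2.10-fold, and POLD3, which binds the clamp, 3.59-fold. POLD4 over POLD1 per kilobase was 0.30 ± 0.09 after siRPS19, against -2.96 ± 0.12 after siOTP on the log2 scale (SD, n = 3 each), a difference of 3.26, and POLD4 went above POLD1 only after siRPS19 (exact permutation p = 0.10, adjusted 0.111). POLD3 over POLD1 differed by 0.49, also without overlap.

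In polymerase epsilon, which copies the leading strand, the B subunit fell far more than the rest. POLE2, the B subunit, which in yeast binds GINS, had 0.769, 0.650 and 0.745 CPM in the siRPS19 libraries, against 24.5, 23.4 and 24.8 CPM in the siOTP libraries. The counts were 20, 15 and 18 counts after siRPS19, against 510, 463 and 481 after siOTP, and the siRPS19 sum of 53 was the lowest of the 58 genes. The log2 fold change was -5.05 ± 0.12 (SE), 33.2-fold lower (adjusted p = 1.06e-18, edgeR's quasi-likelihood test).

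POLE, the catalytic subunit, fell 5.31-fold. The histone-fold subunits POLE3 and POLE4, which are also found in chromatin complexes, moved least: POLE3 had 60.9, 62.3 and 58.5 CPM after siRPS19, against 157, 153 and 152 CPM after siOTP, 2.54-fold lower (log2 fold change -1.35 ± 0.04 (SE), adjusted p = 4.4e-17, edgeR's quasi-likelihood test). POLE3 over POLE4 was 1.29 ± 0.04 after siRPS19, against 1.29 ± 0.05 after siOTP, a difference of 0.00 (exact permutation p = 1.00), the only ratio of the 21 besides RPA2 over RPA1 whose groups overlapped. POLE2 over POLE differed by -2.62, without overlap (exact permutation p = 0.10, adjusted 0.111).

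PCNA, the sliding clamp, was the most abundant of the 58 transcripts per kilobase in both groups and hardly moved. In CPM, MCM7 was higher than PCNA in the siOTP libraries. PCNA had 366, 395 and 407 CPM in the siRPS19 libraries, against 426, 436 and 451 CPM in the siOTP libraries. The 3 siRPS19 libraries lay just below the siOTP libraries, with a log2 fold change of -0.17 ± 0.04 (SE), 1.12-fold lower (adjusted p = 0.00149, edgeR's quasi-likelihood test). Its direction depends on the scaling: it was 0.0048 with upper-quartile factors (adjusted p = 0.92) and 0.12 with library totals (adjusted p = 0.0285).

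The 7 loader genes had larger falls than the clamp. DSCC1, a subunit of the alternative loader that works with cohesin, had 2.85, 3.60 and 2.94 CPM after siRPS19, against 32.5, 32.0 and 34.7 CPM after siOTP, 10.6-fold lower (log2 fold change -3.41 ± 0.09 (SE), adjusted p = 6e-18, edgeR's quasi-likelihood test), with no overlap of the groups. CHTF18, the large subunit of that loader, fell 8.67-fold. RFC1, the large subunit of the main loader, fell 2.04-fold, and the small subunits RFC2, RFC3, RFC4 and RFC5, shared by the loaders, fell 4.41-fold, 10.1-fold, 5.68-fold and 6.32-fold. RFC3 over RFC1 differed by -2.30 and RFC4 over RFC1 by -1.47 on the log2 scale, both without overlap (exact permutation p = 0.10, adjusted 0.111).

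RPA, the single-stranded DNA binding protein of the fork and of repair, had the smallest median fall of the 13 groups, with no subunit down 4-fold. RPA3, the smallest subunit, had 16.9, 20.6 and 19.9 CPM after siRPS19, against 46.0, 41.8 and 44.4 CPM after siOTP, 2.31-fold lower (log2 fold change -1.21 ± 0.07 (SE), adjusted p = 1.69e-12, edgeR's quasi-likelihood test). RPA1, the large DNA-binding subunit, had 154, 165 and 159.9 CPM after siRPS19, against 262, 274 and 272 CPM after siOTP, 1.69-fold lower (log2 fold change -0.76 ± 0.04, adjusted p = 3.28e-13, same test). All siRPS19 libraries were below all siOTP libraries in both. The annotated span of RPA3 shares 77897 bases with that of RPA3-AS1 on the other strand, which held a mean of 432.5 counts. The labels do not state a stranded kit, so reads from any shared exon could not be told apart, and the overlap of exons was not measured.

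RPA2, the phosphorylated middle subunit, fell 1.80-fold. The log2 ratio of RPA2 to RPA1 differed by -0.09 between groups that overlapped (exact permutation p = 0.20, adjusted 0.210), and RPA3 over RPA1 differed by -0.45 without overlap.

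**Figure D3:**
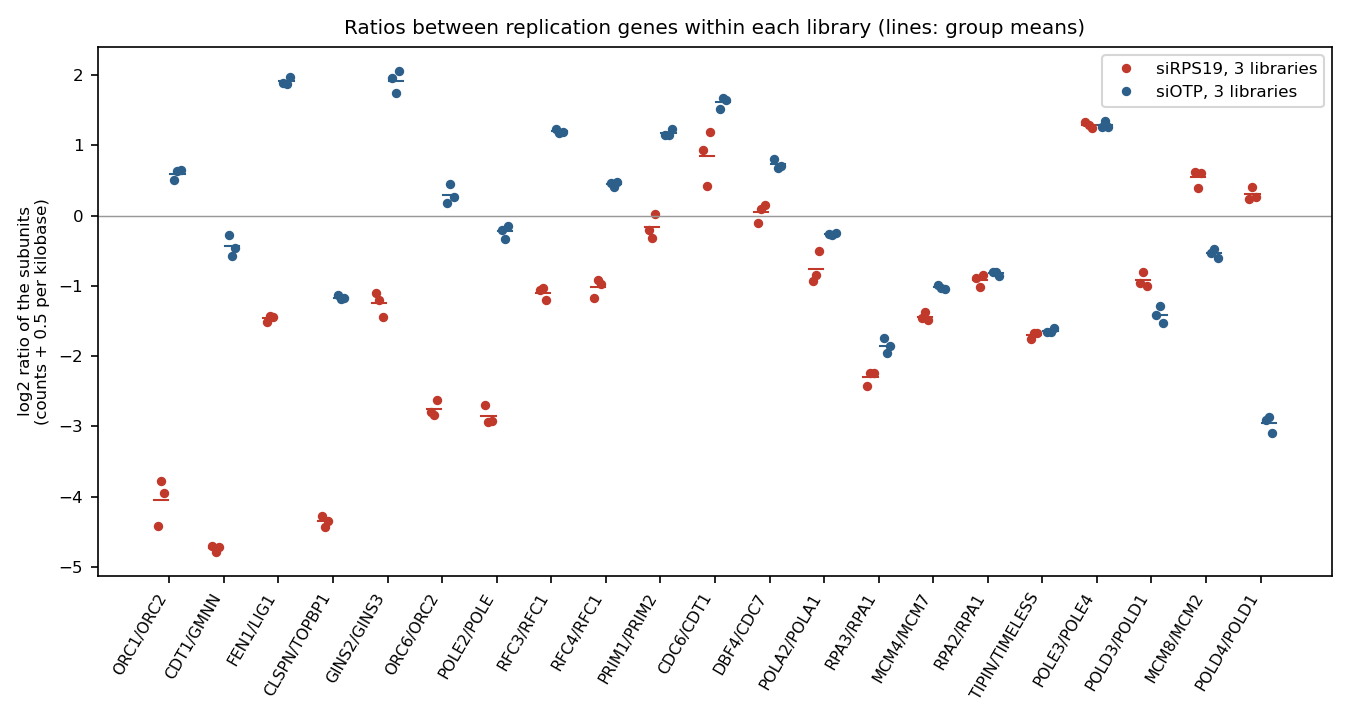
Log2 ratio of 2 partners per kilobase in each library, siRPS19 left of siOTP, for the 21 ratios, with lines at the group means. CDT1 over GMNN lies near -4.74 after siRPS19 and -0.44 after siOTP, whereas POLE3 over POLE4 stays at 1.29 in both.

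On the lagging strand, 3 genes of Okazaki fragment processing fell and the ligase did not. LIG1, the ligase that seals the fragments, had 122, 119.7 and 123 CPM after siRPS19, against 114, 117 and 107 CPM after siOTP. The groups were close but did not overlap, and LIG1 passed the test as higher by 0.11 on the log2 scale (SE 0.04, adjusted p = 0.0182, edgeR's quasi-likelihood test). The call was lost without siOTP replicate 1 (adjusted p = 0.0766), without siOTP replicate 3 (0.203) with no filter on low counts (0.311), and without replicate 1 (0.0558) or replicate 3 (0.214) of both groups.

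FEN1, the nuclease that trims the flap before ligation, had 16.2, 16.8 and 17.0 CPM after siRPS19, against 158, 162 and 159 CPM after siOTP, 9.59-fold lower (log2 fold change -3.26 ± 0.05 (SE), adjusted p = 2.16e-22, edgeR's quasi-likelihood test). The annotated span of FEN1 shares 4265 bases with that of FADS2, a gene with a mean of 9055 counts, so some reads may be ambiguous between them. DNA2, a helicase and nuclease for long flaps, fell 5.26-fold, and RNASEH2A, the catalytic subunit that removes RNA from DNA, 5.33-fold. FEN1 over LIG1 was -1.46 ± 0.05 after siRPS19, against 1.91 ± 0.06 after siOTP on the log2 scale per kilobase (SD, n = 3 each), a difference of -3.37, which reversed the order of the 2 transcripts (exact permutation p = 0.10, adjusted 0.111).

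The 4 fork protection genes all fell at least 4-fold. CLSPN, encoding claspin, the adaptor for checkpoint signalling at the fork, had 1.46, 1.26 and 1.45 CPM after siRPS19, against 52.0, 48.9 and 49.4 CPM after siOTP, 35.8-fold lower (log2 fold change -5.16 ± 0.09 (SE), adjusted p = 5.06e-21, edgeR's quasi-likelihood test). TIMELESS, which with TIPIN steadies the fork, moved least, with 49.5, 46.6 and 48.1 CPM after siRPS19, against 238, 239.9 and 240.1 CPM after siOTP, 4.98-fold lower (log2 fold change -2.31 ± 0.04, adjusted p = 3.99e-21, same test). Neither pair of groups overlapped.

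TIPIN, the partner of TIMELESS, fell 5.21-fold, nearly the same as TIMELESS. TIPIN over TIMELESS differed by only -0.06 on the log2 scale, yet the groups did not overlap (exact permutation p = 0.10, adjusted 0.111). WDHD1, which couples polymerase alpha to the helicase, fell 8.53-fold. CLSPN over TOPBP1 differed by -3.19 on the log2 scale (exact permutation p = 0.10, adjusted 0.111).

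Set side by side, the group medians spread widely. Median log2 fold changes were -5.45 for the licensing factors, -4.34 for MCM8 and MCM10, -3.48 for MCM2-7 and -3.02 for CDC45 and GINS. They were -2.74 for fork protection, -2.58 for the clamp and its loaders, -2.57 for firing factors, -2.41 for Okazaki processing and -2.21 for polymerase alpha-primase. The smallest falls were in polymerase epsilon at -1.88, polymerase delta at -1.46, the origin recognition complex at -1.14 and RPA at -0.85. These are descriptions with no test between groups, and the ranges within groups overlap, since GMNN, a licensing factor at -0.78, lies among the RPA subunits.

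Summed CPM gave another order, because abundant members weigh more. The sum over all 58 genes was 1681, 1713 and 1749 CPM in the siRPS19 libraries, against 6504, 6507 and 6576 CPM in the siOTP libraries, or 0.183% to 0.194% of counts against 0.587% to 0.596%. The MCM2-7 transcripts made up 11.8% ± 0.42 of the summed CPM after siRPS19 and 29.0% ± 0.15 after siOTP (SD, n = 3 each). PCNA alone made up 22.7% ± 0.80 after siRPS19 and 6.70% ± 0.15 after siOTP. RPA kept 0.568 of its siOTP sum and the clamp group 0.534, while CDC45 and GINS kept 0.106 and the licensing factors 0.0990.

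**Figure D4:**
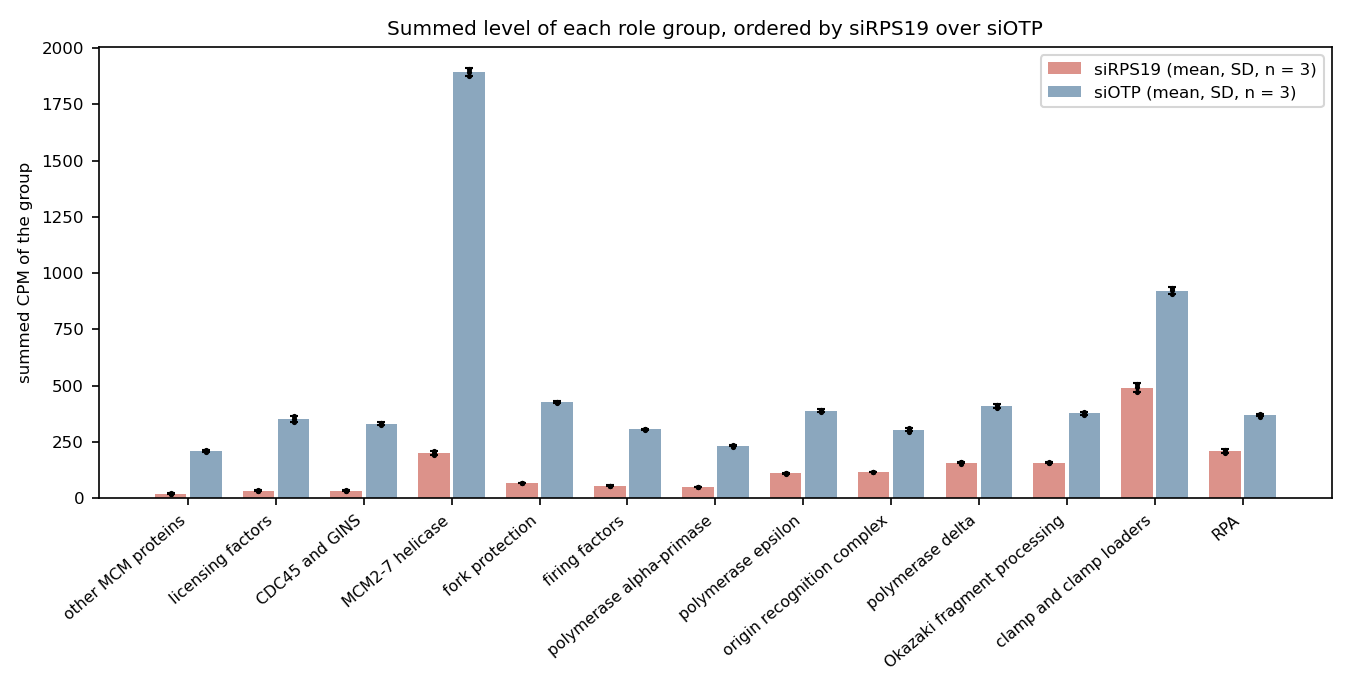
Summed CPM of each role group on a linear axis, siRPS19 left of siOTP, with bars at the mean, error bars for the SD (n = 3) and a point per library. MCM2-7 is the largest group after siOTP, at 1875 to 1908 CPM, and the clamp group the largest after siRPS19, at 472 to 508 CPM.

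Levels per length also shifted. After siRPS19 the 58 genes ran from 0.219 RPKM at DTL to 265 RPKM at PCNA, with a median of 3.35, and 10 of them were under 1 RPKM. After siOTP they ran from 3.96 RPKM at POLD4 to 298 RPKM at PCNA, with a median of 18.7, and none was under 1 RPKM. Between a gene's log2 fold change and its siOTP level, the Spearman correlation was -0.12 and the Pearson correlation on log2 levels -0.04 across the 58 genes, a description over genes of the same libraries.

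**Figure D5:**
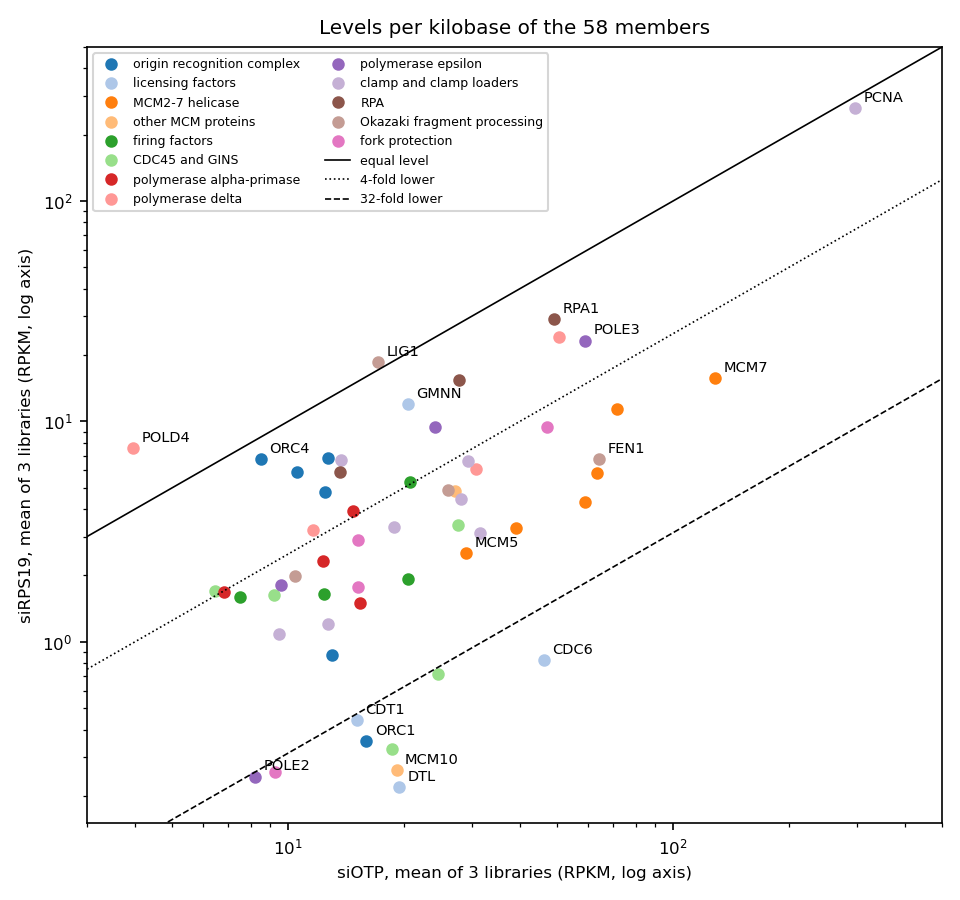
Mean RPKM after siRPS19 against mean RPKM after siOTP for the 58 genes, both axes log, coloured by role, with lines at equal level, 4-fold lower and 32-fold lower. PCNA and LIG1 lie close to the line of equality, POLD4 above it, and the other 55 below.

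A list of 27 other replication genes was also read from the same fit. Of the 26 with enough counts, 24 were lower, 1 was higher and 1 did not pass (edgeR's quasi-likelihood test), with a median log2 fold change of -1.19 and 8 down at least 4-fold. Over all genes tested, 38.9% were lower and 3.20% at least 4-fold lower, and the difference from the 58 genes was not tested. The histone chaperone gene ASF1B fell 44.9-fold, the topoisomerase gene TOP2A 42.4-fold and TICRR, which brings TOPBP1 to CDC45 loading, 16.2-fold. ETAA1, an RPA-binding activator of ATR, had 36.1, 35.5 and 34.0 CPM after siRPS19, against 32.2, 31.7 and 31.4 CPM after siOTP and was higher by 0.15 on the log2 scale (adjusted p = 0.0169, edgeR's quasi-likelihood test). LRWD1, which binds the origin recognition complex, had 39.5, 38.6 and 38.0 CPM after siRPS19, against 40.7, 33.3 and 45.6 CPM after siOTP, groups that overlapped, and a log2 fold change of -0.04 (adjusted p = 0.69). RTEL1, a helicase, had too few counts to test.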

How the data were processed

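Total RNA of the 6 libraries was column-purified and prepared with an Illumina TruSeq kit for paired reads, per the labels' protocols, which do not state strand. TopHat2 (2.0.8b), HTSeq, DESeq, R (3.0.2) and the build hg19 are named in the submitters' processing notes. Neither counting mode nor annotation is given in the sources used here. What the authors deposited are whole-number counts per Ensembl gene and library, and a table with a mean count plus 1 per group, 1 RPKM per group and transcript length. Those deposited means resemble expected counts in that they need not be whole: the authors averaged whole counts per group and added 1 before deposit. These means served only to check the deposited RPKM, and the tests used the whole-number counts per library. Tested on the files, that RPKM equals the mean count plus 1 over length and the group total. The authors' deposited RPKM thus carries no spread between replicates, and it served only as an alternative.

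The members and all lists, ratios and motif letters were chosen with earlier results of these data known. Symbols came from rows on reference chromosomes, and 1 member, RFC2, has a further row on a patch that was not used. Entries naming no gene were left out. Reads assigned to no feature were 5.13% to 6.36% of entries in siRPS19 and 3.39% to 3.85% in siOTP. Ambiguous ones were 7.50% to 7.60% in siRPS19 and 8.10% to 8.24% in siOTP.

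Genes were kept with filterByExpr of edgeR 4.0.16 (minimum count 10, total 15), which left 17171, and scaled with TMM. edgeR's quasi-likelihood test (R 4.3.3) compared the groups, and p-values were adjusted by Benjamini-Hochberg over all genes tested, with a threshold of 0.05. Standard errors are the log2 fold change over the root of F. The script was tested on simulated data in which few genes changed, equally up and down. That run therefore does not test the scaling of these libraries, where most genes were called. Ratios used counts plus 0.5 per kilobase of the deposited length and an exact two-sided permutation test over libraries, in scipy 1.17.1. Alternatives were other scalings, filters, DESeq2 1.42.0, limma-voom (limma 3.58.1), a replicate block and leaving out libraries. Values per library are given for the largest and smallest change in each role, for MCM2 to MCM7 and for genes that rose.

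Replicates differed by more than sampling noise (chi-square per degree of freedom 4.40 to 16.6). Replicates with the same number share a day in the labels' descriptions and so are paired, and their deviations from the group means correlated across genes at 0.09, -0.12 and 0.07. With the replicate block 56 members were lower and 2 higher, as without it. An exact sign-flip test over the pairs cannot go below 0.25.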

Additional observations from a re-analysis of the deposited data

How the results depend on the processing

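The number of the 58 genes called lower was 54 to 56 under all 17 alternatives. It was 54 with library totals, where ORC4 (-0.05, adjusted p = 0.475) did not pass and PCNA was higher, and 55 with upper-quartile factors. Of the 17171 genes tested, library totals called 4734 lower and 9114 higher and upper-quartile factors 5505 and 8187, against 6673 and 6778 with TMM. The count called higher was 2 with the replicate block, DESeq2 and limma-voom, 3 with library totals and 1 with no filter on low counts, and ranged from 1 to 2 when libraries were left out, the gene lost being LIG1 each time (adjusted p 0.0558 to 0.214). PCNA changed sign to 0.0048 with upper-quartile factors, 0.1189 with library totals and 0.1155 in the ratio of the authors' deposited RPKM. No other gene of the 58 changed sign.

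Role medians moved with the scaling, which shifts all genes alike. With upper-quartile factors they were -0.97 for the origin recognition complex, -3.31 for MCM2-7, -2.40 for firing factors, -2.85 for CDC45 and GINS, -2.04 for polymerase alpha-primase, -1.28 for delta, -1.71 for epsilon, -2.41 for the clamp group, -0.68 for RPA, -2.23 for Okazaki processing and -2.56 for fork protection. With library totals, in the same order, they were -0.85, -3.20, -2.29, -2.74, -1.92, -1.17, -1.59, -2.30, -0.56, -2.12 and -2.45, and -5.16 for licensing factors. With no filter on low counts the medians were -3.54 for MCM2-7, -2.26 for polymerase alpha-primase, -1.51 for delta, -2.63 for the clamp group, -2.46 for Okazaki processing and -2.79 for fork protection. With a mean CPM of at least 1 they were -3.44, -2.16, -1.41, -2.53, -2.36 and -2.69, in that order. Leaving out libraries gave -1.49 to -1.42 for delta, -2.61 to -2.54 for the clamp group, -3.52 to -3.46 for MCM2-7 and -2.45 to -2.38 for Okazaki processing. The cause of these moves was not tested beyond the scaling itself.

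Of the 8 alternatives run on the 21 ratios, all but the replicate block gave 19 to 20 ratios whose groups did not overlap. The replicate block instead counted ratios whose paired differences all had the same sign, and there were 19. Depth limits the lowest genes: POLE2 rests on 53 counts over the siRPS19 libraries.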
